A study of Arabidopsis thaliana with 35 samples.

Results

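Shoots of Arabidopsis plants that had been watered with ethanol and then left without water were compared at 13 days after the onset of drought (13 DAD) and at its start (0 DAD). All genes in the deposited count table were compared in the 10 libraries of these 2 groups, out of 35 libraries in the series. The table lists 27417 genes, and 17093 of them had enough counts in the 10 libraries to be tested. The plants were of the wild-type accession Col-0, carried no transgene, and grew on MS medium and then in granular ceramic soil under long days. Their pots stood in 10 mM ethanol for 3 days before drought began. The group at 13 DAD had gone 13 days without watering, and the group at 0 DAD was harvested when the ethanol treatment ended. Each group had 5 libraries, made by Lasy-Seq, a multiplexed RNA-seq method, from total RNA of shoots. Plants pretreated with water and sampled at the same days, with 5 libraries per group, were used for comparison. All of these plants share the accession, soil and light regime, and both ethanol groups had received the same ethanol treatment, so this comparison is of drought within ethanol-pretreated plants. Watered plants of the older age were not analysed here, and 13 days without water and 13 days of age cannot be told apart. The study calls its replicates biological, but the sources used here do not say whether they were separate pots or plants, and the p-values measure the spread between these libraries.

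The libraries held between 3589540 and 8837068 counts at 13 DAD, and between 3781405 and 9786902 counts at 0 DAD (exact two-sided permutation test, p = 0.222, n = 5 each). The counts of the ethanol-pretreated libraries were less concentrated after drought. The 10 genes with the most counts took 7.94% ± 0.841 of the counts at 13 DAD and 12.5% ± 0.699 at 0 DAD (SD, n = 5 each). This difference had an exact permutation p of 0.00794, the smallest that 5 libraries against 5 allow, and 0.0119 after adjustment over 6 library properties. Water-pretreated libraries did not show this fall, with 12.4% to 15.2% at 13 DAD and 12.1% to 13.8% at 0 DAD, which was not tested. Transcripts of the chloroplast genome made up 1.21% ± 0.227 of the counts at 13 DAD, against 2.79% ± 0.215 at 0 DAD. Those of the mitochondrial genome made up 0.0214% ± 0.00333 at 13 DAD and 0.00936% ± 0.00166 at 0 DAD, and both shares had the same p-values as the first. Of 122 mitochondrial genes, 18 had enough counts to be tested. By the rule given below, 9 of these 18 were higher (50%) and none was lower. Over all genes tested, 19.5% were higher and 24.8% were lower. The label of shoot was checked against other organs, and none of 6 root markers and none of 6 seed markers had enough counts to be tested. Summed normalised counts of the root markers were 3.35 to 9.73 at 13 DAD and 5.34 to 9.02 at 0 DAD.

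Plants that lose water make abscisic acid (ABA), a hormone that closes stomata and turns on protective genes. ABA binds receptors of the PYR/PYL/RCAR family, the occupied receptors inhibit clade A protein phosphatases 2C (PP2C), and the kinases released from inhibition activate transcription factors that bind ABA-responsive promoter elements. Their targets include dehydrins and other late embryogenesis abundant (LEA) proteins that protect cells as they dry. Severe drought also shuts down growth and photosynthesis, and older leaves enter senescence.

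A gene was called changed where edgeR's quasi-likelihood test gave a Benjamini-Hochberg adjusted p below 0.1 and the fold change was at least 2. By this rule 3329 genes were higher and 4242 were lower at 13 DAD than at 0 DAD. These are 19.5% and 24.8% of the genes tested, 44.3% together, and the counts of called genes given for each group below are to be read against this background. Among called genes, the median change was 1.71 for higher and -2.0 for lower genes on the log2 scale. A change of at least 4 on this scale was found for 275 higher and 460 lower genes. Normalised counts of the 5 libraries at 13 DAD all lay above or all below those of the 5 libraries at 0 DAD for 9160 genes, 53.6% of those tested (4282 higher, 25.1%, and 4878 lower, 28.5%). When libraries were scaled by their totals alone, 4655 genes were higher and 3428 lower, so that 57.6% of calls were higher instead of 44.0%. The median of all genes was then 0.33 instead of 0.03. Which direction held more genes therefore depended on the scaling, and the changes below can be read against the median of 0.03.

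The genes with the most counts, not corrected for length, changed. At 13 DAD the leading 10 included dehydrins, a lipid transfer protein and metallothioneins, and AT1G07590 came first. At 0 DAD they encoded the small subunit of Rubisco, chlorophyll-binding proteins of the light-harvesting antenna and PSBR. RAB18, a dehydrin induced by ABA, had 16401, 47046, 28295, 84306 and 77701 normalised counts in replicates 1 to 5 at 13 DAD, against 2041 to 2474 at 0 DAD. ERD10, another dehydrin, had 24397 to 48895 at 13 DAD, against 1947 to 3036 at 0 DAD. Every library after drought was above every library before it for both genes. LTP3, a lipid transfer protein, had 26028 to 42570 at 13 DAD and 555 to 742 at 0 DAD. MT3, a metallothionein that binds metal ions, had 48206 to 65726 at 13 DAD and 19989 to 29859 at 0 DAD. AT1G07590, which encodes a protein with tetratricopeptide-like repeats, had 56410 to 68363 at 13 DAD and 13679 to 17021 at 0 DAD. Its annotated transcript overlaps AT1G07600 on the same strand, and reads in overlapping genes were counted for each of them, so its count may include reads of that neighbour. The largest losses of counts were those of RBCS1A and RBCS3B, both encoding the small subunit of Rubisco, and of LHCB1.3, LHB1B2 and LHCB5, which encode antenna proteins of photosystem II. In RNA from whole shoots, fewer cells of a type and less RNA per cell cannot be told apart.

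Of 10 tested genes of ABA synthesis, release and breakdown, 8 were higher and 1 was lower. They comprise 5 genes of synthesis, 4 of them higher and none lower, 4 hydroxylase genes of breakdown, all higher, and BGLU18. NCED3, which encodes the dioxygenase that limits ABA synthesis in dehydrated leaves, had 1192, 1880, 1431, 3349 and 2639 normalised counts at 13 DAD, against 61.5, 77.3, 66.7, 62.4 and 75.2 at 0 DAD. The lowest library after drought exceeded the highest before it by more than the whole range at 0 DAD. The change of NCED3 was 5.00 ± 0.29 on the log2 scale (SE, edgeR adjusted p = 6.7e-09). CYP707A1 and CYP707A2, which encode hydroxylases that break ABA down, were also higher, by 2.49 ± 0.40 and 2.81 ± 0.21. BGLU18, a glucosidase that frees ABA from its stored conjugate, was the member that fell, with 523, 448, 704, 403 and 898 at 13 DAD against 919, 2792, 3564, 1808 and 2590 at 0 DAD. Its highest library after drought lay just under replicate 1 at 0 DAD, and the change was -1.90 ± 0.36 (edgeR adjusted p = 0.00067).

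Receptor genes were mixed, while those of the phosphatases they inhibit rose. Of 8 tested ABA receptor genes, 4 were lower, 1 was higher and 3 were not called, with a median change of -0.91. PYL4 had 49.6, 63.8, 85.3, 44.3 and 38.0 at 13 DAD, against 544, 390, 397, 437 and 422 at 0 DAD, a change of -2.93 ± 0.19 (edgeR adjusted p = 1.7e-09). PYL9 was the receptor gene that rose, with 193 to 399 at 13 DAD against 92.8 to 119 at 0 DAD. All 9 clade A PP2C genes were higher, with a median change of 3.80, while the median of all genes tested was 0.03. HAI2 had 1848, 2069, 1763, 2395 and 2439 at 13 DAD, against 56.6, 42.5, 43.6, 97.3 and 48.5 at 0 DAD, and changed by 5.31 ± 0.22. HAI1 changed by 5.15 ± 0.21 and ABI1 by 3.24 ± 0.15. Normalised counts of these 3 phosphatase genes did not overlap between the groups.

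Transcription factors of the drought response rose with them. Of 19 tested stress transcription factor genes, 15 were higher and 1 was lower. HB7 and HB12, homeodomain leucine zipper factors induced by ABA, had 6303 to 12045 and 6764 to 7913 normalised counts at 13 DAD, against 207 to 292 and 198 to 275 at 0 DAD. HB12 had the narrower range at 13 DAD. RD26, a NAC factor, changed by 4.63 ± 0.30 and ABF3, a basic leucine zipper factor that binds ABA-responsive elements, by 3.63 ± 0.15. DREB2A, which binds dehydration-responsive elements, had 119, 329, 202, 400 and 430 at 13 DAD against 27.5 to 38.7 at 0 DAD, with replicate 1 lowest after drought. MYB96, which activates wax synthesis, changed by 1.86 ± 0.16. In families taken from product names after the values were seen, 29 of 45 tested NAC genes were higher and 2 lower, and 31 of 60 MYB genes were higher and 12 lower.

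Of 20 drought and ABA marker genes, 19 were higher and 1 was lower, with a median change of 4.16. LEA7, a LEA protein of drying tissue, had 2481, 11677, 7135, 31626 and 27268 normalised counts at 13 DAD, against 670, 761, 580, 631 and 577 at 0 DAD. The libraries after drought were widely spread, replicate 1 being lowest and replicate 4 highest, and none overlapped the earlier group. The change of LEA7 was 4.71 ± 0.67 (edgeR adjusted p = 0.00013). The dehydrins XERO2 (4.91 ± 0.57) and RAB18 (4.55 ± 0.42) and the cold- and ABA-induced gene KIN1 (4.03 ± 0.62) showed the same order of libraries, with replicate 1 lowest and replicate 4 highest. RD29A and RD29B, neighbouring genes used as reporters of drought and ABA signalling, changed by 3.41 ± 0.28 and 4.72 ± 0.47. The dehydrin genes COR47 and ERD14 had large counts before drought, between 3171 and 4738, and changed by 3.46 ± 0.26 and 2.42 ± 0.17. COR15B, a chloroplast protein of cold acclimation, was the marker that fell, with 833 to 1776 at 13 DAD against 2676 to 3090 at 0 DAD, a change of -1.26 ± 0.16. It was no longer called when libraries were scaled by their totals alone (-0.96).

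**Figure D1:**
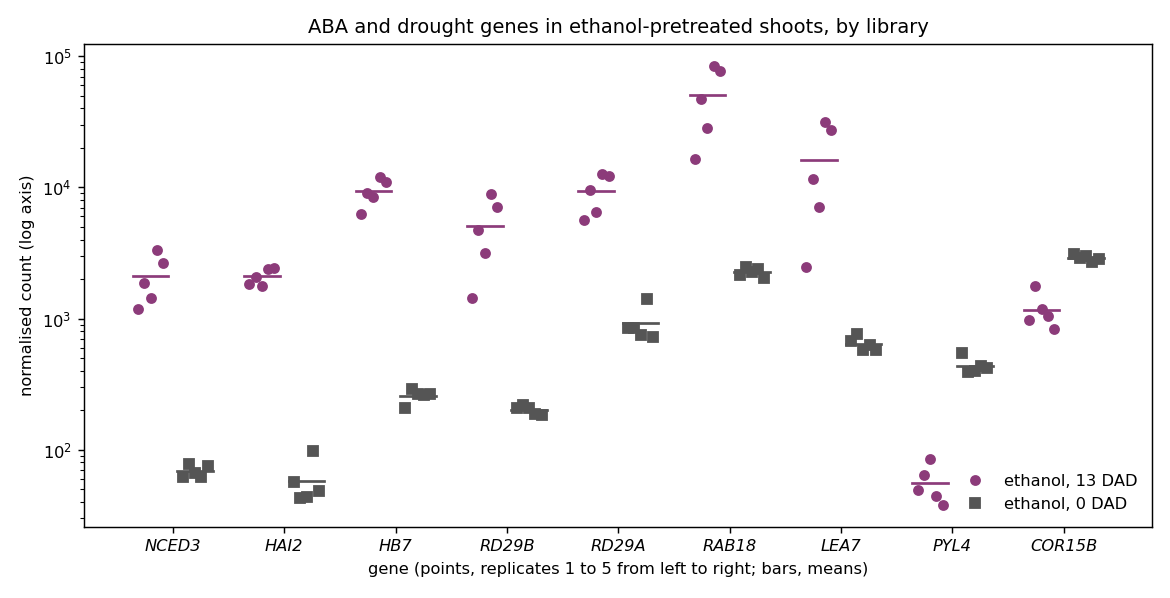
Normalised counts (log axis) of 9 genes of ABA synthesis, signalling and response, with circles for ethanol-pretreated shoots at 13 DAD, squares for those at 0 DAD and bars for the means of 5 libraries. NCED3 lies between 1192 and 3349 at 13 DAD and LEA7 between 2481 and 31626, while PYL4 and COR15B are the genes drawn that lie lower at 13 DAD.

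Promoters of some of these genes are shown, with matches to motifs known from ABA, dehydration and other responses marked. Whether the matches act in these shoots was not tested. The sequences are the 250 bases before the RefSeq start of the gene in TAIR10.1, written 5′ to 3′ on the gene's own strand. Capitals mark matches, on either strand, to ACGTGGC or ACGTGTC (ABA-responsive elements), CACGTG (G-box), ACCGAC (dehydration-responsive element), AAATATCT (the core of the evening element), AAACCCTA (telo-box), GGCCCA (site II element) or GATAAG (I-box). ACGTGTC overlaps CACGTG where a C precedes it. RD29B (chr5:21236771-21237020, plus strand) and RD29A (chr5:21240467-21240716, plus strand) are neighbours that rose by different amounts. RAB18 (chr5:26519448-26519697, minus strand) and LEA7 (chr1:19619474-19619723, plus strand) were among the most spread genes at 13 DAD.
RD29B: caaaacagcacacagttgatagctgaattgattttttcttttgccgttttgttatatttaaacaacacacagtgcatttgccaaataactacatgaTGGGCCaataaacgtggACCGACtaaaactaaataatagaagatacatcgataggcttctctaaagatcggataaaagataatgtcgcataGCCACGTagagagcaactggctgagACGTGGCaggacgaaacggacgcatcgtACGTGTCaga
RD29A: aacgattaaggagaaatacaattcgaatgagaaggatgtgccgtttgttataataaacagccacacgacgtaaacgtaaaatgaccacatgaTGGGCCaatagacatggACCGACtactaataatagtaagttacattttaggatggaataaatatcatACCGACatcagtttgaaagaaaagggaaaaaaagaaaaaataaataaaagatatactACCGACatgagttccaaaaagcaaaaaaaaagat
RAB18: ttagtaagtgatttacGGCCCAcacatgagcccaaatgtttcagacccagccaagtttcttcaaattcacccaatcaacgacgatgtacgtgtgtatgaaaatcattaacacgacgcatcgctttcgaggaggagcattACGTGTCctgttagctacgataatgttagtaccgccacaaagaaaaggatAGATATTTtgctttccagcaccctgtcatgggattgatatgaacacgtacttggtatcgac
LEA7: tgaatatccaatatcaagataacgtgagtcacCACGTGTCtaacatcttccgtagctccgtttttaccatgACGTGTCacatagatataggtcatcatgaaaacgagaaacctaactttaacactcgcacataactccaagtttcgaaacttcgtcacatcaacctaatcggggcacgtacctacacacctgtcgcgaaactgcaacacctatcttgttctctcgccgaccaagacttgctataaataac
The window of RD29B held 2 matches to ACGTGGC, 1 to ACGTGTC and 1 to ACCGAC, and that of RD29A held 3 to ACCGAC. RAB18 had 1 match to ACGTGTC and LEA7 had 2. The next set shows an anthocyanin gene that rose, DFR (chr5:17166033-17166282, minus strand), with UGT79B1 (chr5:21938397-21938646, minus strand), and the genes with the largest losses of counts, LHCB1.3 (chr1:10477635-10477884, plus strand) and RBCS1A (chr1:25049668-25049917, minus strand).
DFR: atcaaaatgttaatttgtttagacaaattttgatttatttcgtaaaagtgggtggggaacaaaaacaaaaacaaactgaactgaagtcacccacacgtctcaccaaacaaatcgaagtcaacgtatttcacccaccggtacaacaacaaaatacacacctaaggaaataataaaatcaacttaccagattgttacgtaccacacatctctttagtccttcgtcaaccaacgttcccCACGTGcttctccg
UGT79B1: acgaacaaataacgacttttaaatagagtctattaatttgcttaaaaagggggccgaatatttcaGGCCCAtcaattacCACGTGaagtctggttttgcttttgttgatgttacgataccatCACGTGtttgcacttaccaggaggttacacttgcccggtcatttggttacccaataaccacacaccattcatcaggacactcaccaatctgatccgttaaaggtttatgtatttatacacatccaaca
LHCB1.3: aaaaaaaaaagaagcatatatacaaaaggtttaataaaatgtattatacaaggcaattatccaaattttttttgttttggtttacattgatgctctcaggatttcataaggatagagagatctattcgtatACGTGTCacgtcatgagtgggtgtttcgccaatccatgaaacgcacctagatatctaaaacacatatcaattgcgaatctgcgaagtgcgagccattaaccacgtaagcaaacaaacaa
RBCS1A: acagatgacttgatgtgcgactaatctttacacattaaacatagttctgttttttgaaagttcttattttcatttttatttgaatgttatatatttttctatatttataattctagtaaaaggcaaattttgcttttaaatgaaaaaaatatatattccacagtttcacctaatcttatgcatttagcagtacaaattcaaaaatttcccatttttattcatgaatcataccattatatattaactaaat
DFR held 1 match to CACGTG and UGT79B1 held 2. Not all genes that rose held such matches. The windows of LDOX and LTP3, not printed here, held no ABA-responsive element, G-box or dehydration-responsive element. LDOX held 1 match to GGCCCA and LTP3 held 1 to AAACCCTA. LHCB1.3, which fell, held 1 match to ACGTGTC, and RBCS1A held no match to any of these motifs.

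Across promoters, ABA-responsive elements were most frequent in genes that rose. ACGTGTC was found in 8.79% of 3299 promoters of higher genes (Wilson 95% interval 7.87% to 9.81%), in 3.17% of 4190 promoters of lower genes (2.68% to 3.75%) and in 4.61% of the 16927 promoters of all tested genes. ACGTGGC was found in 7.09% of higher, 3.53% of lower and 4.24% of all promoters. The G-box CACGTG was in 12.5%, 5.97% and 7.83%, and ACCGAC in 6.79%, 4.49% and 5.44%, in the same order. AAATATCT differed less, with 5.30%, 5.80% and 5.12%. AAACCCTA and GGCCCA, elements found in many ribosomal protein promoters, were less frequent in higher genes (2.06% and 12.6%) than in all tested genes (3.43% and 17.5%). GATAAG, known from light-regulated promoters, was in 15.1% of lower genes and in 12.6% of all. A match is a run of letters, not a shown binding site, and these intervals cover counting error only.

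Genes of protective solutes were split. GOLS2, which makes galactinol for the raffinose family of sugars, had 6142, 4645, 4977, 3176 and 3369 normalised counts at 13 DAD, against 124, 172, 158, 338 and 111 at 0 DAD. All libraries after drought lay far above those before it, and the change was 4.72 ± 0.33 (edgeR adjusted p = 7.2e-08). SIP2, a raffinose galactosidase, changed by 4.23 ± 0.33, and 5 of 6 tested galactinol and raffinose genes were higher. Of 9 proline genes 2 were higher and 1 was lower, with a median change of 0.13. The share of 22.2% higher was near the 19.5% of all genes tested. P5CS1, which catalyses the committed step of proline synthesis, changed by 2.47 ± 0.25. Its paralog P5CS2 had 331, 560, 570, 1151 and 879 at 13 DAD, against 370, 368, 279, 341 and 330 at 0 DAD, with replicate 1 after drought inside the range before it. P5CS2 was called at 1.12 ± 0.27, but not without replicate 4 at 13 DAD (0.87). ERD5, a proline dehydrogenase, had 73.5 to 128 at 13 DAD and 104 to 162 at 0 DAD and was not called.

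Starch and sugar genes moved in both directions, as did all genes tested (19.5% higher and 24.8% lower). Among 13 tested starch breakdown genes 3 were higher and 5 lower, or 8 lower without replicate 1 at 13 DAD, and among 14 starch synthesis genes 3 were higher and 3 lower. BAM1, a beta-amylase of stressed leaves, had 4480 to 5863 at 13 DAD against 318 to 450 at 0 DAD, a change of 3.84 ± 0.14 (edgeR adjusted p = 3.2e-12). BAM6, another beta-amylase, changed by 1.60 ± 0.23. GBSS1, which makes amylose, had 1125, 524, 530, 244 and 281 at 13 DAD, against 82.0, 108, 86.2, 99.1 and 92.8 at 0 DAD, replicate 1 being highest here. APL3, a subunit of the enzyme that supplies ADP-glucose, changed by 2.80 ± 0.21. Genes of sugar starvation and amino acid breakdown moved in both directions. Of 20 tested, 4 were higher (20%) and 8 lower (40%). SEN1 and DIN10, both induced by darkness, fell to 24.1 to 99.8 and 19.4 to 99.8 at 13 DAD, against 397 to 1214 and 582 to 854 at 0 DAD. ASN1, the dark-induced asparagine synthetase, changed by -2.56 ± 0.29, whereas LKR, which starts lysine breakdown, rose by 4.1 ± 0.25.

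Photosynthesis genes were lower almost without exception. Photosystem and antenna proteins capture light, the Calvin cycle fixes carbon dioxide, and most of these proteins are encoded in the nucleus. Of 38 tested photosystem and antenna genes 37 were lower and none was higher, and the median change was -2.94. RBCS1A had 9719, 8371, 18616, 6840 and 5986 normalised counts at 13 DAD, against 236639, 186225, 196775, 144198 and 183782 at 0 DAD. Replicate 3 was the highest library after drought and still far below every library before it. RBCS1A changed by -4.19 ± 0.32 (edgeR adjusted p = 1.2e-08) and RBCS3B by -4.49 ± 0.35. LHCB1.3 had 6175 to 14437 at 13 DAD and 144744 to 178858 at 0 DAD. It has near-identical neighbours, AT1G29910 and AT1G29920, with which reads may be exchanged, and the change of LHCB1.3 was -4.12 ± 0.27. LHCB2.3 had the largest fall of this group (-4.90 ± 0.36), LHCB5 changed by -3.86 ± 0.33 and LHB1B2 by -2.59 ± 0.32. PSBR, a small subunit of photosystem II, had 17950 to 49160 at 13 DAD against 75965 to 86820 at 0 DAD, a change of -1.36 ± 0.26. LHCB4.3, a minor antenna protein, was the exception, with 373, 244, 341, 146 and 111 at 13 DAD and 275, 317, 254, 308 and 245 at 0 DAD, so that the groups overlapped.

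Of 19 Calvin cycle genes 16 were lower and none was higher, with a median change of -1.88. GAPA2, a chloroplast glyceraldehyde-3-phosphate dehydrogenase, changed by -3.62 ± 0.19. RCA, the activase of Rubisco, fell less, with 3615 to 12184 at 13 DAD against 15630 to 21759 at 0 DAD. Its call at -1.15 ± 0.30 was lost without replicate 4 (-0.99) or without replicate 5 (-0.96) at 13 DAD. All 17 chlorophyll synthesis genes were lower, with a median change of -2.66. PORA, a protochlorophyllide oxidoreductase of young seedlings, had 1.34, 3.19, 3.94, 1.08 and 5.90 at 13 DAD, against 226, 208, 211, 240 and 222 at 0 DAD. PORB, the oxidoreductase of green leaves, had 253 to 341 at 13 DAD and 7873 to 9939 at 0 DAD. PORB changed by -4.81 on the log2 scale. PORA had at most 9 raw counts in any library at 13 DAD, so that its fitted change of -6.0 is imprecise. CHLM, a methyltransferase of the same route, changed by -3.95 ± 0.19. Of 80 tested genes of the chloroplast genome, 42 were lower and none was higher.

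Photorespiration, which salvages the product of Rubisco's reaction with oxygen, was less affected. Of 14 tested genes 4 were lower and 1 higher, or 8 lower without replicate 3 at 13 DAD. HPR1, the peroxisomal hydroxypyruvate reductase, had 2631, 1451, 2790, 835 and 964 at 13 DAD, against 3600, 3244, 3285, 3251 and 3492 at 0 DAD. All libraries after drought were below those before it, but HPR1 (-0.89 ± 0.31) and PMDH2, a peroxisomal malate dehydrogenase (-0.87 ± 0.22), stayed under the 2-fold limit. They passed it without replicate 3 at 13 DAD (-1.12 and -1.05). CAT2, the leaf catalase that removes photorespiratory hydrogen peroxide, was the member that rose, with 5127 to 9242 at 13 DAD against 2133 to 2734 at 0 DAD.

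**Figure D2:**
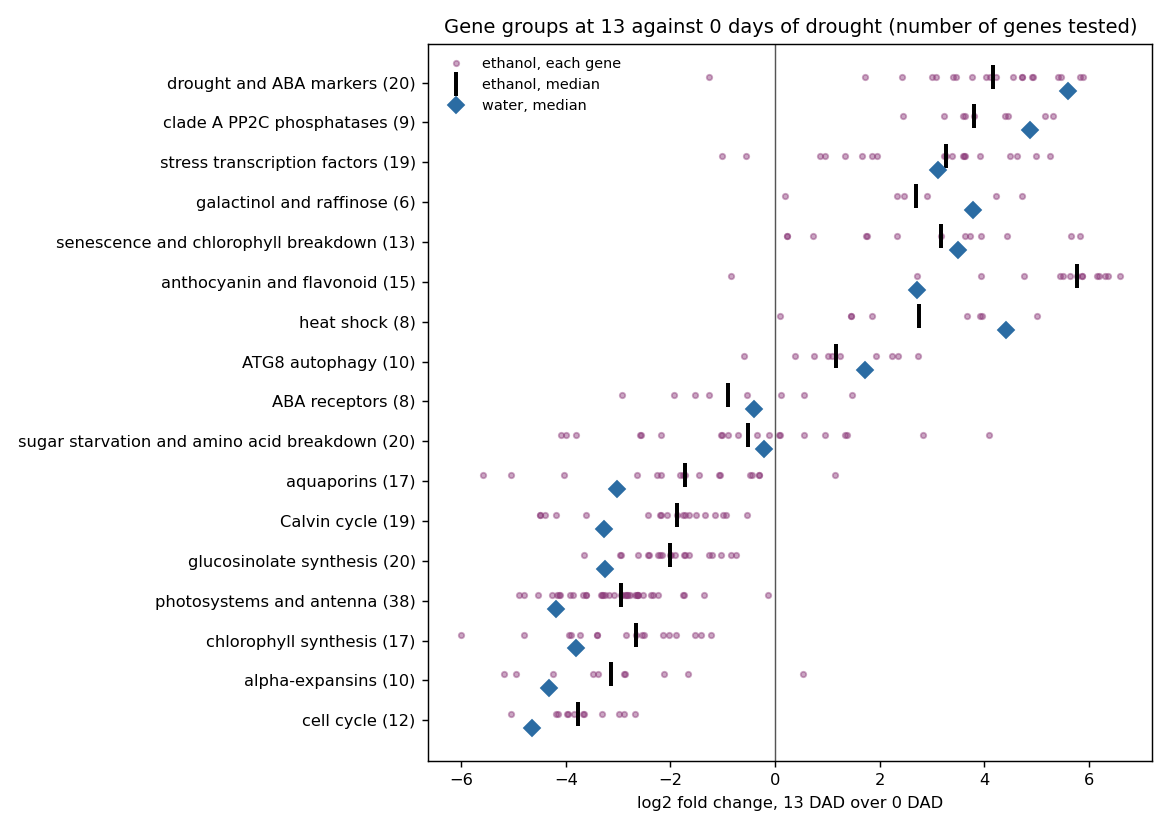
Log2 fold changes, 13 DAD over 0 DAD, of the tested genes of 17 groups in ethanol-pretreated shoots (small circles, with a black tick at the median) and the median of the same group in water-pretreated shoots (diamonds). Medians run between 5.77 for anthocyanin genes and -3.76 for cell cycle genes. The water median lies farther from 0 than the ethanol median except for anthocyanin, stress transcription factor and ABA receptor genes and those of sugar starvation and amino acid breakdown.

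Senescence genes were higher in 10 of 13 tested, with a median change of 3.16, and none was lower. NYE1 and NYE2, which act at the start of chlorophyll breakdown, had 1851 to 2369 and 674 to 950 normalised counts at 13 DAD, against 111 to 195 and 19.7 to 56.9 at 0 DAD. PAO, which opens the chlorophyll ring, changed by 3.16 ± 0.18, although its locus overlaps AT3G44870 on the same strand. ORE1, a NAC factor of ageing leaves, had 1115 to 1452 at 13 DAD and 45.9 to 141 at 0 DAD. SAG12, a cysteine protease of late senescence, had 3900, 5735, 1036, 1525 and 2564 at 13 DAD, against 21.3, 60.3, 27.6, 31.2 and 156 at 0 DAD. The sugar exporter SWEET15 had 756, 1746, 1602, 7082 and 4437 at 13 DAD, against 52.5 to 63.4 at 0 DAD. These genes did not rank the libraries in the same order, since replicate 2 was highest for SAG12 and replicate 4 for SWEET15. SAG12 changed by 5.66 ± 0.75 and SWEET15 by 5.83 ± 0.67.

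Of 9 ATG8 genes, which encode the membrane anchor of autophagosomes, 7 were higher, led by ATG8H at 2.72 ± 0.20, and NBR1, an autophagy receptor in the same list, was not called. Of 11 genes of nitrogen assimilation and recycling 2 were higher and 6 lower. GLN1;4, a cytosolic glutamine synthetase, had 868, 776, 631, 411 and 349 at 13 DAD, against 98.4, 64.2, 79.1, 128 and 68.5 at 0 DAD. The groups were well apart, and GLN1;4 had 876 on average already at 10 DAD. The chloroplast isoform GLN2 fell by 1.99 on the log2 scale and the asparagine synthetase ASN2 by 4.25.

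Anthocyanin genes had the highest median change of the lists examined. Anthocyanins are red flavonoid pigments that stressed leaves accumulate, made from chalcone through DFR and LDOX under the control of MYB factors such as PAP1 and PAP2 with the bHLH factor TT8. Of 15 tested genes 14 were higher, and the median change was 5.77. TT4, chalcone synthase, had 23437, 19064, 11693, 15820 and 16502 normalised counts at 13 DAD, against 384, 383, 310, 439 and 308 at 0 DAD. DFR had 11622, 10130, 5341, 8211 and 8883 at 13 DAD, against 152, 135, 131, 121 and 109 at 0 DAD. LDOX had 7866, 6233, 3931, 3805 and 4431 at 13 DAD, against 55.7, 66.5, 62.2, 95.5 and 74.4 at 0 DAD. Replicate 1 was highest for all 3 enzymes, unlike for the dehydrins, and no library overlapped the other group. Changes were 5.64 ± 0.22 for TT4, 6.16 ± 0.22 for DFR and 6.30 ± 0.26 for LDOX (edgeR adjusted p = 1.9e-11 for LDOX). LDOX has a near-identical copy, AT4G22870, and PAP2 has AT1G66380, with which reads may be exchanged. UGT79B1, which adds xylose to anthocyanins and resembles AT5G08105, changed by 6.36 ± 0.26.

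The regulators rose as well. PAP2 had 4028, 4343, 2909, 4183 and 3849 at 13 DAD, against 33.6, 47.2, 55.1, 47.7 and 28.4 at 0 DAD, and TT8 changed by 5.77 ± 0.27. PAP1 had 2076, 1440, 1322, 537 and 787 at 13 DAD, against 24.6, 101, 122, 134 and 47.6 at 0 DAD, a change of 3.94 ± 0.54. FLS1, which diverts precursors to flavonols, was the member not called, with 24.9 to 36.8 at 13 DAD and 32.6 to 85.9 at 0 DAD. Levels at 10 DAD, which were not tested, are given as a description. TT4 averaged 365, 390 and 17303 normalised counts at 0, 10 and 13 DAD, and LDOX 70.9, 131 and 5253, and PAP1 averaged 85.9, 429 and 1232. At 10 DAD the libraries overlapped those at 0 DAD for TT4, with 304 to 483 against 308 to 439, and for LDOX, with 92.8 to 177 against 55.7 to 95.5, but not for PAP1, with 210.0 to 677 against 24.6 to 134.

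**Figure D3:**
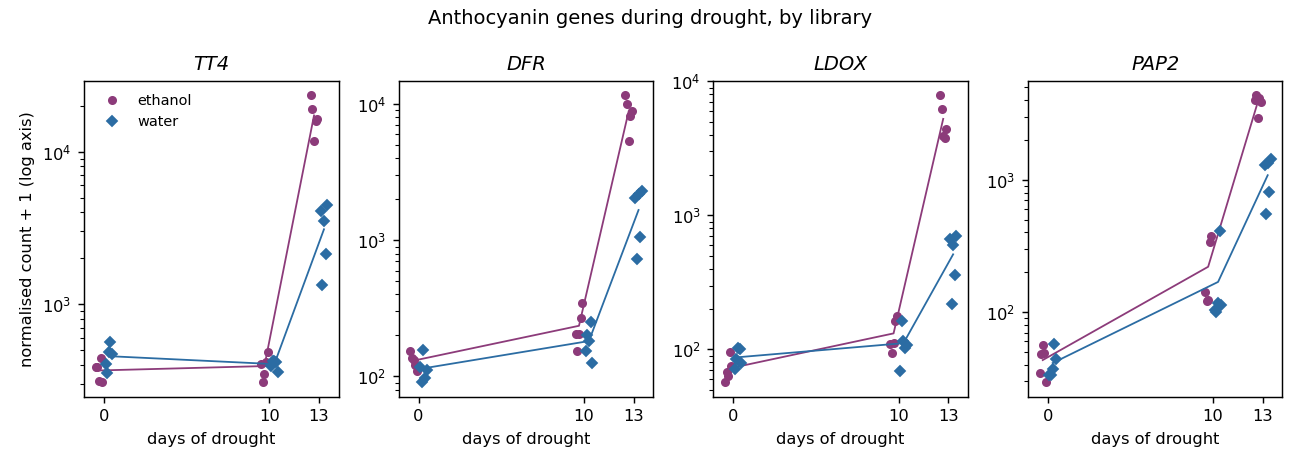
Normalised counts plus 1 (log axis) of TT4, DFR, LDOX and PAP2 against days of drought, with every library as a point and lines through the means, for ethanol-pretreated (circles) and water-pretreated (diamonds) shoots. LDOX reached 3805 to 7866 in ethanol-pretreated shoots at 13 DAD and averaged 511 in water-pretreated shoots on that day, while the 2 pretreatments lie close together at 0 DAD.

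Cell cycle and expansin genes were lower. All 12 tested cell cycle genes fell, with a median change of -3.76. CYCB1;2, a cyclin of mitosis, had 2.01, 3.19, 1.31, 4.32 and 2.62 normalised counts at 13 DAD, against 93.4, 95.9, 115, 71.6 and 104 at 0 DAD. KNOLLE, the syntaxin of the new cell plate, had 11.8 to 20.7 at 13 DAD against 158 to 281 at 0 DAD. CYCB1;2 was near the detection limit after drought, where 3 raw counts correspond to 1.97 to 4.79 normalised counts. Of 10 alpha-expansin genes, whose products loosen cell walls, 9 were lower. EXPA8 had 11.4 to 36.7 at 13 DAD and 710 to 970 at 0 DAD, a change of -5.18 ± 0.24. EXPA16 differed, with 1.97 to 194 at 13 DAD and 23.4 to 66.1 at 0 DAD, and was not called. Of 11 genes of ribosome biogenesis 1 was lower, FIB2, which encodes a fibrillarin, and none was higher. Ribosomal protein genes were lower in 167 and higher in 11 of 312 tested, with a median of -1.07, in a family taken from product names after the values were seen. Of 47 SAUR genes, auxin-induced genes of growing tissue grouped in the same way, 33 were lower and 10 higher.

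Aquaporins, channels for water in the plasma and vacuolar membranes, were lower in 12 of 17 tested and higher in 1. TIP2;1, a vacuolar aquaporin, had 181, 230, 442, 162 and 146 at 13 DAD, against 10845, 7255, 7704, 5481 and 8706 at 0 DAD. PIP2;8 had 0.655 to 6.56 at 13 DAD and 101 to 242 at 0 DAD. Every library after drought was far below those before it for both genes, with changes of -5.05 ± 0.32 and -5.58 ± 0.36. PIP1;4 was the aquaporin that rose, with 3997 to 4782 at 13 DAD against 1979 to 2277 at 0 DAD. Of 8 cellulose synthase genes 3 were higher and 1 lower. Those that rose belong to the secondary wall set and include CESA7, with 119, 81.4, 154, 81.1 and 85.2 at 13 DAD against 14.7 to 38.5 at 0 DAD. Of 6 wax genes 3 were higher, led by KCS2, a fatty acid elongase, at 3.79 ± 0.16.

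Glucosinolates are sulphur compounds that deter herbivores, and 18 of 20 tested genes of their synthesis were lower, with a median change of -2.0. CYP79F1, which acts on methionine-derived precursors, had 117, 94.2, 393, 102 and 87.1 normalised counts at 13 DAD, against 1119 to 1439 at 0 DAD. CYP83A1, the next enzyme, had 468, 179, 562, 117 and 101 at 13 DAD, against 1341 to 1826 at 0 DAD. Replicate 3 was highest for both after drought. MYB28, their regulator, changed by -1.27 ± 0.16. The mean of CYP79F1 was not lower at 10 DAD than at 0 DAD, and CYP79F1 averaged 1261, 2231 and 159 at 0, 10 and 13 DAD.

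Of 16 defence genes 13 were lower and 1 was higher. The libraries before drought were split for this group. Its mean log2 difference from the 0 DAD mean was -1.43 in replicate 1 at 0 DAD and 0.207 to 0.638 in the other replicates. At 13 DAD it was -2.10 to -1.66. In water-pretreated shoots at 0 DAD it ran from -1.39 to 1.12. PR1, a marker of salicylate signalling, had 24.8, 6.38, 14.4, 11.9 and 24.9 at 13 DAD, against 8.20, 456, 365, 279 and 432 at 0 DAD. PDF1.2, a defensin of jasmonate and ethylene signalling, had 126, 168, 144, 213 and 156 at 13 DAD, against 192, 2679, 4112, 3108 and 3141 at 0 DAD. Replicate 1 at 0 DAD was as low as the drought libraries for both genes, so the groups overlapped, although both were called (-4.03 ± 0.86 for PR1 and -3.98 ± 0.68 for PDF1.2). LOX2, a lipoxygenase of jasmonate synthesis, changed by -2.70 ± 0.37. PR2, a glucanase, was the member that rose, with 190 to 393 at 13 DAD against 26.2 to 105 at 0 DAD.

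Heat shock genes encode chaperones, and 7 of 8 tested were higher. HSP70 had 1205, 2142, 1310, 3518 and 3632 normalised counts at 13 DAD, against 61.9 to 97.5 at 0 DAD. The small heat shock proteins were more variable. HSP17.4 had 41.5, 164, 53.8, 536 and 481 at 13 DAD against 12.5 to 34.0 at 0 DAD, and HSP17.6A had 6.70, 36.7, 11.8, 70.2 and 85.2 against 3.28 to 24.8, so that HSP17.6A alone overlapped between groups. Their changes were 3.67 ± 0.83 and 1.85 ± 0.69.

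Because the plants had taken up ethanol, genes of ethanol metabolism, low oxygen and gluconeogenesis were examined as 1 list. Of 13 tested 7 were higher and 1 lower, but 4 were higher without replicate 5 at 13 DAD. ADH1, alcohol dehydrogenase, had 480, 1344, 1184, 3160 and 3184 at 13 DAD, against 94.3, 119, 115, 130 and 83.6 at 0 DAD, the harvest at the end of ethanol treatment. All 5 libraries after drought exceeded all 5 at 0 DAD, and ADH1 changed by 4.19 ± 0.53 (edgeR adjusted p = 6.4e-05). SUS1, a sucrose synthase, changed by 3.33 ± 0.32, and ALDH2B4, a mitochondrial aldehyde dehydrogenase, by 1.77 ± 0.15. PDC1, pyruvate decarboxylase, stayed scarce, with 7.57 to 15.1 at 13 DAD and 0 to 3.67 at 0 DAD. Antioxidant enzymes changed little as a group, with 2 of 14 higher and 2 lower. APX1, the cytosolic ascorbate peroxidase, changed by 1.71 ± 0.14 and CSD2, the chloroplast copper/zinc superoxide dismutase, by -1.98 ± 0.38.

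Clock genes were called in 9 of 12 cases, 5 higher and 4 lower, or 2 lower with scaling by library totals alone. The morning genes LHY and CCA1 had 185 to 265 and 851 to 949 normalised counts at 13 DAD, against 12.4 to 25.9 and 87.1 to 119 at 0 DAD. TOC1, an evening gene, had 36.2 to 60.5 at 13 DAD and 105 to 138 at 0 DAD. The hour of harvest is not given in the sources used here, and drought and hour cannot be told apart for these genes. FT, the mobile signal that starts flowering, had 145, 112, 218, 171 and 124 at 13 DAD, against 13.9, 18.6, 23.1, 23.9 and 20.1 at 0 DAD, and averaged 116 at 10 DAD. SOC1, a MADS-box factor downstream of it, had 1290 to 1809 at 13 DAD and 705 to 854 at 0 DAD.

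Markers of particular shoot cells were examined next. Of 5 guard cell markers 2 were lower and 3 were not called, with summed counts of 187 to 276 at 13 DAD and 274 to 373 at 0 DAD. Their log2 changes ran from -2.77 to 0.83, and 2 of the 5 were above 0. MYB60, a regulator of stomatal opening, had 11.2 to 15.4 at 13 DAD against 69.4 to 110 at 0 DAD. None of 4 phloem markers was called. Of 2 tested xylem markers 1 was lower, with summed counts over the list of 163 to 293 at 13 DAD and 347 to 575 at 0 DAD. Of 8 inflorescence markers 4 could be tested, 1 higher and 2 lower, with summed counts of 64.8 to 181 at 13 DAD and 61.9 to 134 at 0 DAD. The part of cell composition in the results above was not tested. Genes often used as internal standards were not all stable. PP2AA3 (0.35 ± 0.14), GAPC1 (-0.06 ± 0.11, positive with scaling by library totals alone) and AT4G34270 (0.02 ± 0.15) were not called. UBQ10, polyubiquitin, was called higher at 1.15 ± 0.14, AT5G60390, an elongation factor, was called lower at -1.05 ± 0.12 but not with that scaling (-0.76), and ACT2, actin, changed by -0.99 ± 0.10, just under the limit.

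By fold change, the genes that rose most among those with enough counts were led by AT2G17680, which had 63.0, 169, 155, 336 and 219 normalised counts at 13 DAD and at most 2 raw counts in any library at 0 DAD. Against a floor of 3 counts per library, it was at least 34.2-fold higher. DIP2 (6.75 ± 0.22), the dehydrin XERO1 (6.71 ± 0.26), AT5G45690 (6.63 ± 0.61), AT4G08570 (6.53 ± 0.18), AT5G45630 (6.47 ± 0.55) and AT3G62990 (6.30 ± 0.38) followed, together with PAP2, UGT79B1 and LDOX described above. DIP2 had 11781 to 17979 at 13 DAD, against 119 to 184 at 0 DAD. The largest falls were those of AT5G03350 (-6.79 ± 0.24), AT5G48490 (-6.71 ± 0.38), PAR1 (-6.20 ± 0.40), PCC1 (-6.05 ± 0.24), PORA, AT3G16670 (-5.88 ± 0.25), AT1G22690 (-5.85 ± 0.22), XTH16 (-5.81 ± 0.25), AT5G19190 (-5.80 ± 0.32) and AT3G05730 (-5.79 ± 0.17). PAR1 is a regulator of shade responses, PCC1 a gene of defence and flowering with the near-identical copy AT3G22235, and XTH16 a cell wall enzyme. AT3G05730 had 47.6 to 80.1 at 13 DAD and 3248 to 4249 at 0 DAD. For 9 of these 10 genes, PCC1 being the exception, all libraries at 10 DAD were already below those at 0 DAD. The genes were chosen for their fall from the same 0 DAD libraries, which favours this count. The share of all tested genes that lay below at 10 DAD was not determined. AT5G03350, for example, averaged 697, 46.4 and 5.41 at 0, 10 and 13 DAD.

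The libraries at 13 DAD differed more among themselves than those at 0 DAD, chiefly for genes that fell. Over all tested genes with enough counts, the median SD of log2 CPM was 0.259 at 13 DAD and 0.184 at 0 DAD. Genes that fell have fewer counts at 13 DAD, and the part of counting noise in their spread was not tested. For called lower genes with enough counts, the median SD of log2 CPM between replicates was 0.399 at 13 DAD and 0.152 at 0 DAD. For called higher genes the values were 0.247 at 13 DAD and 0.259 at 0 DAD. In water-pretreated shoots, the median SD of the same lower genes was 0.311 at 13 DAD and 0.154 at 0 DAD. The library with the highest normalised count was replicate 4 for 36.8% of called higher genes and replicate 3 for 38.8% of called lower genes, and replicate 1 was the lowest for 40.7% of called higher genes. The gene groups ordered the libraries differently. For drought and ABA markers, the mean log2 difference from the 0 DAD mean was 2.69, 3.88, 3.37, 4.32 and 4.18 in replicates 1 to 5 at 13 DAD. For photosystem genes it was -3.10, -3.31, -2.27, -3.77 and -3.87. Replicates 4 and 5 thus had the highest drought markers and the lowest photosystem genes. For anthocyanin genes it was 5.45, 5.17, 4.61, 4.79 and 4.90, with replicate 1 highest. For the 12 tested cell cycle genes it was -3.76, -3.50, -3.77, -3.92 and -3.40. All 13 genes of the cell cycle list summed to only 51.9 to 81.4 normalised counts at 13 DAD, close to the detection limit.

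**Figure D4:**
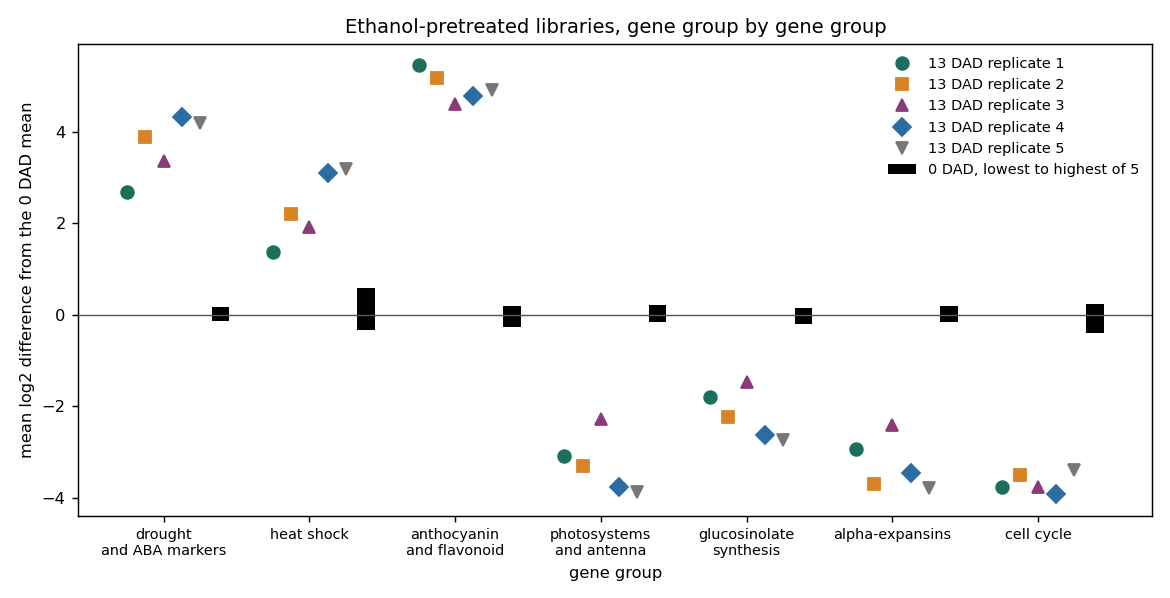
Mean log2 difference of 7 gene groups from their mean at 0 DAD in each of the 5 ethanol-pretreated libraries at 13 DAD (symbols, replicates 1 to 5) and the span of the 5 libraries at 0 DAD (black bars). Drought and ABA markers spread between 2.69 in replicate 1 and 4.32 in replicate 4, and anthocyanin genes are highest in replicate 1 at 5.45.

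The course was then set against that of water-pretreated shoots, which share no library with the ethanol-pretreated ones. In water-pretreated shoots 52.5% of 16851 tested genes were called at 13 against 0 DAD, 22.6% higher and 30% lower. Of 16595 genes tested in both, 2656 were higher in both, which is 83.0% of the genes higher in ethanol-pretreated and 71.7% of those higher in water-pretreated shoots. For lower genes, 3708 were shared, out of 4114 ethanol and 4938 water calls. Across these genes the log2 changes had a Pearson's r of 0.914 and a Spearman's rho of 0.906, as a description, since genes are not independent replicates. The size of change differed. Genes called higher in water-pretreated shoots had a median change of 1.45 in ethanol-pretreated and 1.76 in water-pretreated shoots, and those called lower had -1.69 and -2.36. These genes were chosen on the water values, so their median there is no independent measure.

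To place each library, an axis was drawn between the mean water-pretreated libraries at 0 DAD (position 0) and at 13 DAD (position 1), over genes called in water-pretreated shoots. Ethanol-pretreated libraries at 13 DAD lay at 0.707, 0.819, 0.716, 0.897 and 0.888, and those at 0 DAD at -0.00553, 0.0382, 0.0220, 0.0655 and 0.0178. Their means were 0.806 ± 0.0910 and 0.0276 ± 0.0263 (SD, n = 5 each, exact permutation p = 0.00794). Water-pretreated libraries at 13 DAD, which define the axis, lay between 0.974 and 1.04. The genes were chosen on the water values, so the gap between these and the ethanol-pretreated libraries is no independent measure. At 10 DAD the positions were 0.203 to 0.312 in ethanol-pretreated and 0.151 to 0.272 in water-pretreated shoots, so these overlapped.

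**Figure D5:**
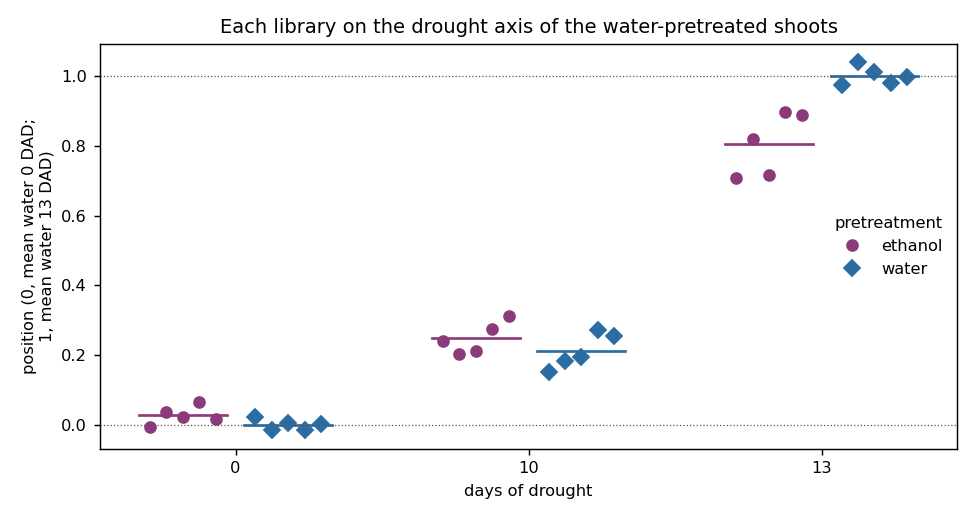
Position of each library on the axis between the mean water-pretreated shoots at 0 DAD (0) and 13 DAD (1), by days of drought, for ethanol-pretreated (circles) and water-pretreated (diamonds) shoots, with bars at the means of 5 libraries. The ethanol-pretreated libraries at 13 DAD lie between 0.707 and 0.897, all below the water-pretreated ones of that day, whose mean is 1 by construction.

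The difference between the changes, ethanol minus water, was tested directly. It was called for 13.3% of 17927 genes, positive for 1533 (8.55%) and negative for 849 (4.74%). Of the genes higher in ethanol-pretreated shoots 257 had a positive and 339 a negative difference, and of those lower 662 had a positive and 161 a negative difference. With scaling by library totals alone, 2563 differences were positive and 491 negative. Among drought and ABA markers, 9 of 20 differences were negative and none positive. RAB18 averaged 50750 normalised counts in ethanol-pretreated and 231487 in water-pretreated shoots at 13 DAD, and its difference was -2.37 (edgeR adjusted p = 0.00023). KIN1 (-3.09), LEA7 (-2.40), XERO2 (-2.20), DREB2A (-1.70), RD29B (-1.39), RD29A (-1.27) and AT1G07590 (-1.17, but -0.89 and not called with scaling by library totals) differed in the same direction, and COR47 did so at -1.04, a call lost when any of 6 single libraries was left out, such as replicate 1 (-0.88) or 3 (-0.95) of ethanol-pretreated shoots at 13 DAD. The ABA synthesis gene NCED3 (-0.28), the factors HB7 (-0.23) and HB12 (-0.33) and the phosphatase ABI1 (0.19) had differences that did not pass the test. ABF3 rose more in ethanol-pretreated shoots, with a difference of 1.64, as did PYL9 at 1.03, which was not called without replicate 1 at 13 DAD (0.86).

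Photosynthesis genes differed the other way. In 23 of 38 photosystem genes and 6 of 19 Calvin cycle genes the difference was positive, and in none negative, so these genes fell less in ethanol-pretreated shoots. PSBR (1.28), RCA (1.58), LHCB4.3 (1.77) and LHB1B2 (1.32) were among them, though LHB1B2 was not called without replicate 3 at 13 DAD (0.94). LHCB1.3 (0.40) and LHCB2.3 (0.45) did not pass the test. HPR1 and PMDH2 had differences of 1.92 and 1.85, and their means at 13 DAD were 1734 and 2852 in ethanol-pretreated against 508 and 816 in water-pretreated shoots. Of 20 glucosinolate genes 14 had a positive difference, such as CYP83A1 at 1.85 and MYB28 at 1.14, MYB28 losing its call without replicate 2 of water-pretreated shoots at 13 DAD (0.98). CYP79F1 was called at 1.28, but not without replicate 3 at 13 DAD (0.66). Chlorophyll synthesis differed in 2 of 17 genes, PORA among them with -1.34, which was lost without replicate 1 at 13 DAD (-1.08).

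Anthocyanin genes differed in the positive direction. All 15 tested had a positive difference. Over the 14 genes tested under both pretreatments, the median change was 5.71 in ethanol-pretreated and 2.71 in water-pretreated shoots. Differences were 3.69 for LDOX (edgeR adjusted p = 8.8e-06), 3.64 for PAP1, 3.44 for UGT79B1, 3.42 for TT8, 2.81 for TT4, 2.23 for DFR, 1.77 for PAP2 and 1.05 for FLS1, the last not being called without replicate 5 at 0 DAD (0.92) among others. PAP1 changed by 3.94 in ethanol-pretreated and by 0.28 in water-pretreated shoots, where it was not called. FT behaved alike, with 3.03 and -0.10, and a difference of 3.09. Starch genes also parted: BAM6 changed by 1.60 in ethanol-pretreated and -2.06 in water-pretreated shoots, GBSS1 by 2.60 and -0.07, and BAM1 by 3.84 and 5.08, the difference of BAM1 not being called with scaling by library totals (-0.99). GLN1;4 had a difference of 2.12 and CESA7 one of 1.32.

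Negative differences were also found among heat shock and proline genes and those of sugar starvation and amino acid breakdown. HSP17.4 and HSP17.6A had differences of -3.12 and -4.06, and 4 of 8 heat shock genes were negative. P5CS2 changed by 1.12 in ethanol-pretreated and 4.2 in water-pretreated shoots, a difference of -3.11, and ERD5 differed by -1.74. SEN1 (-3.30) and DIN10 (-1.18, not called without replicate 1 at 13 DAD) were also negative. So was LKR (-1.20), but it was not called with scaling by library totals (-0.95). SIP2 (-1.36), ADH1 (-1.77), SUS1 (-1.56) and ATG8H (-1.72) were negative too. Of 20 genes of sugar starvation and amino acid breakdown, 7 were negative. BGLU18 fell less, with a difference of 2.67. PR1 (-3.03) and CYP707A1 (-1.20) were called, but lost the call when any of 12 single libraries for PR1 and any of 13 for CYP707A1 was left out.

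The largest differences among genes with enough counts included several with a wide spread. EXPA16 differed by 6.26 and CYP81D11, a detoxifying cytochrome P450, by 5.38, with 16.1, 75.0, 894, 37.8 and 18.3 at 13 DAD in ethanol-pretreated shoots, where replicate 3 stood far above the others. AT2G17680 differed by 3.09, a call lost without replicate 1 (2.79) or 5 (2.82) at 0 DAD, and DIP2 by 1.07, lost without replicate 1 at 13 DAD (0.96). JAL23 (4.70) and JAL33 (4.07), jacalin lectins, and ACA1 (4.05), a carbonic anhydrase, fell in water-pretreated but were not called in ethanol-pretreated shoots, though ACA1 was called lower there without replicate 1 (-1.06) or 3 (-1.02) at 13 DAD. NUDT24 (4.45), a Nudix hydrolase, had 1391, 169, 247, 86.5 and 123 at 13 DAD in ethanol-pretreated shoots and averaged 12.1 in water-pretreated ones. RAP2.9, an AP2/ERF factor, was lower in ethanol-pretreated (-3.14) and higher in water-pretreated shoots (2.28), a difference of -5.43. AT5G55750 (-5.01), AT5G35660 (-4.65), GASA2 (-4.55) and CWINV5, a cell wall invertase (-4.54), rose mainly in water-pretreated shoots, where AT5G35660 averaged 1944 at 13 DAD. AT5G55750 and GASA2 had too few counts to be tested in ethanol-pretreated shoots alone, and GASA2 lost its call without replicate 3 at 0 DAD (-3.55), as did AT5G55750 without replicate 1 (-3.90) or 2 (-4.81) at 0 DAD. CWINV5 was called higher in ethanol-pretreated shoots at 1.58 ± 0.64, but not without replicate 5 at 13 DAD (0.82).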

How the data were processed

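RNA-seq was made with Lasy-Seq from Arabidopsis shoots. The authors trimmed reads with Trimmomatic, mapped them with HISAT2 to TAIR10 and counted them per gene with featureCounts, by strand and with reads in overlapping genes counted for each, and deposited raw counts. They also deposited normalised counts, a signal equal to the raw count divided by 1 factor per library, which compares libraries but not genes of different length. Groups came from the sample labels, and 0 columns had no sample. The authors' own comparisons were not used.

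Raw counts were tested with edgeR 4.0.16 in R 4.3.3 (TMM, genes kept by filterByExpr, robust quasi-likelihood F-test, Benjamini-Hochberg over all genes tested). Calls needed an adjusted p below 0.1 together with a fold change of 2 or more. The fit of the change used the 10 ethanol libraries, the interaction used 20. The SE was taken from the log2 change and its F statistic. Single values were compared by exact two-sided permutation. DESeq2 1.42.0, other scalings and filters, a replicate block and single libraries left out were alternatives. The procedure was also run on simulated counts in which 200 of 16879 genes were changed, equally in both directions. With so few changed genes, that run cannot check the scaling, on which the balance of higher and lower calls depended. The axis used log2 of CPM plus 1, and group means per library log2 of normalised counts plus 1. Library totals give the depth, and intervals cover counting error only. No pair of libraries of a group agreed within sampling noise.

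Genes were named by rules: the 10 largest fold changes per direction without overlap and with a mean of at least 50 normalised counts, the 5 called genes per direction with the largest change in mean counts, key members and up to 2 called members per direction of each gene list, LEA7, RD29A, DREB2A and PMDH2, up to 5 genes per direction with the largest interaction, and internal standards. Members and lists were chosen with earlier results of these data known. Promoters and names came from RefSeq, TAIR10.1, which matched 26720 of 27417 identifiers. Near-identical copies are those with at least 95% identity by BLAST 2.17.0 over at least 100 bases.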

Additional observations from a re-analysis of the deposited data

Results flagged for a closer look

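The 138 named genes gave 276 groups of 5 ethanol-pretreated libraries, at 13 and at 0 DAD. In 24 of these, 1 library lay apart, its gap to the nearest of the others being over 0.71 of the range of the group (Dixon's 95% value). For independent, normally distributed values this arises in about 1 in 20 groups. The genes share the same libraries, so the groups are not independent, and the 24 cannot be set against that rate. Values in parentheses are normalised counts of that library. At 13 DAD, the libraries that lay apart were as follows. Replicate 1 was the highest for NUDT24 (1391) and MYB60 (15.4) and the lowest for ATG8H (514). Replicate 3 was the highest for LHCB1.3 (14437), RBCS3B (8013), LHCB2.3 (1312), CYP81D11 (894), TIP2;1 (442), CYP79F1 (393), LOX2 (366), CHLM (259), EXPA16 (194) and SEN1 (99.8). Replicate 4 was the lowest for AT1G07590 (56410). Replicate 5 was the highest for PDC1 (15.1).

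The same was found at 0 DAD. Replicate 1 was the highest for LHCB1.3 (178858) and the lowest for ORE1 (45.9). Replicate 3 was the highest for AT5G03350 (810.0). Replicate 4 was the highest for MT3 (29859), RD29A (1419), SOC1 (854), GOLS2 (338) and HAI2 (97.3). Replicate 5 was the highest for SAG12 (156). Replicate 4 at 0 DAD also had the lowest total, 3781405 counts, and the fewest genes with at least 10 counts, 15347, and lay apart for both. The part of its depth in these values was not tested.

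The change between 0 and 13 DAD differed between ethanol- and water-pretreated shoots in the interaction test for 1533 genes in the positive and 849 in the negative direction, and 64 of the named genes were among them. Positive differences on the log2 scale, ethanol minus water, were those of EXPA16 (6.26), CYP81D11 (5.38), JAL23 (4.70), NUDT24 (4.45), JAL33 (4.07), ACA1 (4.05), LDOX (3.69), PAP1 (3.64), BAM6 (3.63), UGT79B1 (3.44), TT8 (3.42), AT2G17680 (3.09), FT (3.09), TT4 (2.81), BGLU18 (2.67), GBSS1 (2.65), DFR (2.23), GLN1;4 (2.12), HPR1 (1.92), CYP83A1 (1.85), PMDH2 (1.85), PAP2 (1.77), LHCB4.3 (1.77), ABF3 (1.64), RCA (1.58), CESA7 (1.32), LHB1B2 (1.32), CYP79F1 (1.28), PSBR (1.28), MYB28 (1.14), DIP2 (1.07), FLS1 (1.05) and PYL9 (1.03). Negative differences were those of RAP2.9 (-5.43), AT5G55750 (-5.01), AT5G35660 (-4.65), GASA2 (-4.55), CWINV5 (-4.54), HSP17.6A (-4.06), SEN1 (-3.30), HSP17.4 (-3.12), P5CS2 (-3.11), KIN1 (-3.09), PR1 (-3.03), LEA7 (-2.40), RAB18 (-2.37), XERO2 (-2.20), ADH1 (-1.77), ERD5 (-1.74), ATG8H (-1.72), DREB2A (-1.70), PCC1 (-1.60), SUS1 (-1.56), RD29B (-1.39), SIP2 (-1.36), PORA (-1.34), RD29A (-1.27), BAM1 (-1.27), XTH16 (-1.23), CYP707A1 (-1.20), LKR (-1.20), DIN10 (-1.18), AT1G07590 (-1.17) and COR47 (-1.04).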

How the results depend on the processing

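The counts of 3329 higher and 4242 lower genes moved by less than 1.5 times under the alternatives run. They were 3168 and 4396 with DESeq2, 3157 and 4385 with RLE factors, 4655 and 3428 with scaling by library totals, 3943 and 5216 with at least 1 count, 2985 and 3697 at a mean of at least 20 counts, 3390 and 4821 with all 7 groups in the fit, and 3268 to 3481 and 4285 to 4526 without single libraries. With the replicate block they were 3297 and 4290, but libraries with the same number did not deviate together (correlations -0.00822 to 0.0388), so they share only a number. Counts in water-pretreated shoots were 3805 to 3931 and 5074 to 5306 without single libraries. The interaction counts of 1533 and 849 were 2563 and 491 with scaling by library totals, the cause not being tested, and 1272 to 1743 and 694 to 979 without single libraries. In the 150 bases before the start, the share of higher genes with CACGTG exceeded that of all tested genes by 3.40 percentage points, and for AAACCCTA it differed by -0.826 points. The mean axis position at 13 DAD was 0.783 to 0.830 and its difference from 0 DAD 0.755 to 0.802 without single libraries. That leave-out for library properties was chosen after seeing the data.

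Of 136 named genes tested in ethanol-pretreated shoots, 13 changed their call under some alternative. COR15B, MYB28, TOC1, RCA and AT5G60390 lost it with scaling by library totals, and P5CS2 with the replicate block (0.996). ACT2 was called with DESeq2 (-1.04) and under 8 other settings. For the interaction, 33 of 138 named genes changed their call, among them AT1G07590 (-0.89), LKR (-0.95), BAM1 (-0.99) and XTH16 (-0.95), lost with scaling by library totals. At 13 DAD depth limits genes with a few counts, and a missing call does not show that a gene did not change.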
